A study of Mus musculus with 72 samples.

Results

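Levels of 9 genes of the neuromuscular junction and of denervated muscle were followed in mouse gastrocnemius: *Chrna1*, *Chrnb1*, *Chrnd*, *Chrng*, *Chrne*, *Musk*, *Ncam1*, *Runx1*, and *Gadd45a*. They were chosen by name, as 5 subunits of the muscle acetylcholine receptor and 4 genes known for their response to loss of the nerve, out of 55401 genes in the count tables. The main experiment held 34 gastrocnemius libraries from male mice, taken early in the light phase (ZT1), in 3 groups at each of 2 ages. WT mice were littermates (6 libraries at 10 weeks, 5 at 40 weeks). *Bmal1*-KO mice lacked the core clock gene *Bmal1* (*Arntl*) in every tissue from birth (6 libraries at 10 weeks, 5 at 40 weeks). KO+AAV mice were *Bmal1*-KO mice given AAV9-CK6-Bmal1-HA in the first postnatal week (7 libraries at 10 weeks, 5 at 40 weeks). CK6 is a promoter for skeletal muscle that is active at all times of day, and the vector was designed to return BMAL1 there alone. By the study's own blots the returned protein stayed below the WT level and the tag was not seen in soleus, and BMAL1 in motor neurons was not analysed here. A separate experiment compared 3 *Bmal1*-KO mice that received AAV9-CK6-GFP (KO+GFP) with 3 control *Bmal1*-KO mice at 10 weeks, with no WT library. All groups that carried a vector were therefore on the *Bmal1*-KO background.

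The adult muscle acetylcholine receptor joins α, β, δ, and ε subunits, and a γ subunit takes the place of ε in fetal muscle. In innervated fibers the nuclei under the synapse make most of this mRNA, and electrical activity keeps the same genes low along the rest of the fiber. When the nerve is lost, this brake is lifted and the α, β, δ, and γ subunits, the kinase MuSK, the adhesion molecule NCAM, the transcription factor RUNX1, and the stress protein GADD45A are well known to rise, so these genes are widely used as signs of denervation.

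Reads counted on genes were 32563431 to 41733282 in the libraries from the ICBR sequencing site (10-week libraries only, 4 of them KO+AAV, 3 KO, and 3 WT), 9325122 to 13610317 in the other main libraries, sequenced at Novogene, and 6754312 to 8515400 in the GFP experiment. None of the 10 markers of adult muscle fibers was at 0 in any library. *Arntl* had 402 to 634 normalized counts in WT and 196 to 296 in KO at 10 weeks, and 480 to 608 in WT at 40 weeks. Among the 40-week KO libraries it was 381, 1039, 395, 312, and 308, so the library labelled KO replicate 2 stood above every WT library. The count covers the whole gene and includes exons outside a deletion, and *Arntl* in KO+AAV (169 to 281 at 10 weeks, 268 to 359 at 40 weeks) lay in or below the range of KO. The library labelled KO replicate 2 and KO+AAV replicate 2 at 40 weeks also stood apart in *Trim63* (63967 and 34644 normalized counts, against 2892 to 6385 elsewhere in the main experiment), a ubiquitin ligase gene of atrophy. At 10 weeks KO+AAV replicate 4 had a summed count of 138140 over 6 fibroblast markers and KO+AAV replicate 5 one of 8657 over 10 macrophage markers, where the other KO+AAV libraries reached at most 27062 and 2550. These 4 libraries stay in all values unless stated, and results that rest on them are also given without them. In whole muscle, a change in the number of cells or nuclei that express a gene cannot be told apart from a change in RNA per cell.

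The DNA in front of the RefSeq start is shown for 3 subunit genes. They encode the γ and ε subunits, which stand in for each other in the fetal and adult receptor, and the acetylcholine-binding α subunit. The DNA was read from RefSeq promoters of GRCm38.p6, where 7 of the 9 members had an entry (*Chrnd* and *Ncam1* had none). No run is given for *Chrnb1*, since all 250 bases before its RefSeq start lie in annotated exon. Capitals mark E-boxes (CANNTG), the motif of MyoD-family and clock bHLH factors, and the N-box (CCGGAA), a motif named for synaptic nuclei. Each run ends at the base before the RefSeq start or annotated exon, on the strand of the gene. Positions are counted from the RefSeq start, and 22 exon bases before it were dropped from the *Chrne* run. The *Chrng* run lies inside the gene as annotated, which starts at 87204657.
*Chrna1*, α subunit, chr2:73580339-73580588, minus strand: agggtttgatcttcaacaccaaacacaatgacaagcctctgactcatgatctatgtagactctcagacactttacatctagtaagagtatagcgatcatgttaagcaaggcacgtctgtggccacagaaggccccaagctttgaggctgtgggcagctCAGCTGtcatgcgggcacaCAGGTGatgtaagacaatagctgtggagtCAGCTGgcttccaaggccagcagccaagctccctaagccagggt
*Chrng*, fetal γ subunit, chr1:87205561-87205809, plus strand: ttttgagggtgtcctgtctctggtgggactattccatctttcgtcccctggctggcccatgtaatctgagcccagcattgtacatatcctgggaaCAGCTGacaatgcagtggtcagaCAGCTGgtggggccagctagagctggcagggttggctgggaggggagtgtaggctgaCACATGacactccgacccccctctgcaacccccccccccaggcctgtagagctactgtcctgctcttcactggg
*Chrne*, adult ε subunit, chr11:70619217-70619444, minus strand: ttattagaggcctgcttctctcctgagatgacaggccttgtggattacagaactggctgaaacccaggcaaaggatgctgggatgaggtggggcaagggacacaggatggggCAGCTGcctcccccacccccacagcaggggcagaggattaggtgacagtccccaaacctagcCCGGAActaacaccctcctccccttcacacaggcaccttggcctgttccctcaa
*Chrna1* and *Chrng* each held 3 E-boxes, of which 2 read CAGCTG, at 92 and 44 bases upstream of the start of *Chrna1* and at 155 and 132 bases upstream of that of *Chrng*. *Chrne* held 1 CAGCTG, 138 bases upstream, and 1 N-box, 76 bases upstream. In the 250 bases upstream of 32851 mouse promoters, searched on both strands, an E-box of any kind was found in 66.2%, CAGCTG (a subset of these) in 13% and the N-box in 12%. These are matches of letters only. The clock form of the E-box is CACGTG (6.02% of promoters, also a subset). Among the 7 members with an entry it was found in the window of the upstream *Runx1* start alone, 71 bases before it. The last 75 bases of that window lie in annotated exon, so this match does too.

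Genes were tested together, so that a gene was called when its Benjamini-Hochberg adjusted p over all genes tested was under 0.05. Differences are given on the log2(normalized count + 1) scale with their SE, after adjustment for sequencing site. *Chrng* was under the filter of a mean of 5 normalized counts, leaving 8 of the 9 members in the tests. At 10 weeks 3 of the 8 were higher in KO than in WT (*Chrna1*, *Chrnb1*, and *Gadd45a*), with 8.00% of all genes called in that comparison. The same 3 were higher in KO+AAV than in WT, where 5.15% of genes were called. At 40 weeks 5 of the 8 were higher in KO than in WT (*Chrna1*, *Chrnb1*, *Ncam1*, *Runx1*, and *Gadd45a*) against 23.5% of genes called, and 4 were higher in KO+AAV than in WT (all of these but *Ncam1*) against 12.5%. No member was called lower in a comparison with WT. The median member differed from WT by 0.61 (log2) in KO and 0.56 in KO+AAV at 10 weeks, and by 1.33 and 0.90 at 40 weeks, where the median of all genes tested was between -0.01 and 0.02. KO and KO+AAV share the WT libraries in these comparisons.

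**Figure D1:**
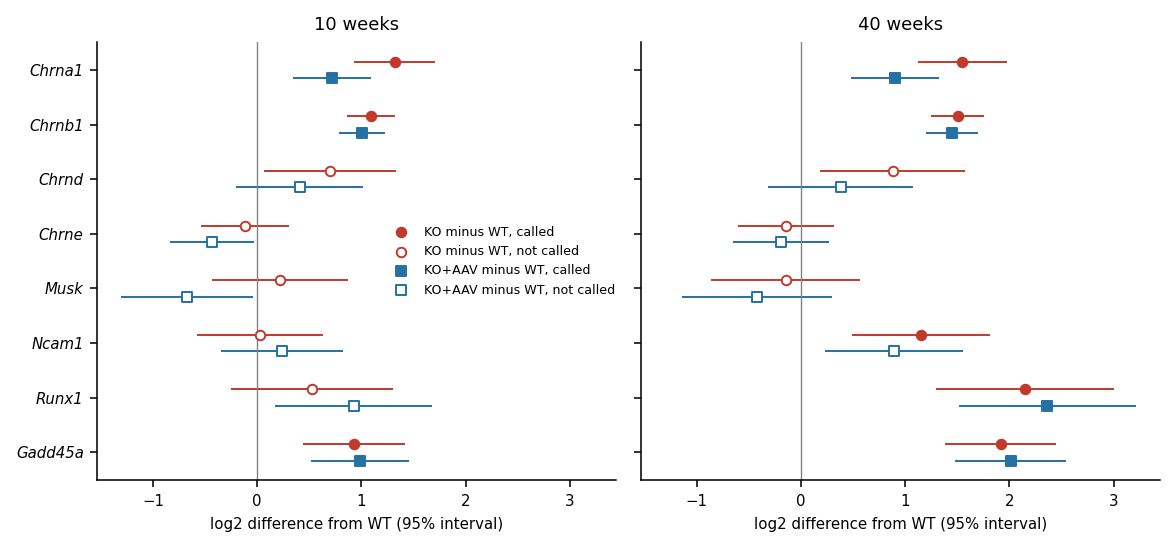
Log2 difference from WT of the same age (x axis, log2 of normalized count + 1, with 95% intervals) for the 8 members tested, in KO (red circles) and KO+AAV (blue squares). Filled symbols are called: *Chrna1*, *Chrnb1*, and *Gadd45a* are called in both groups at both ages, and *Runx1* in both groups at 40 weeks only. *Ncam1* is called only in KO at 40 weeks, and *Chrnd*, *Chrne*, and *Musk* are called nowhere.

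*Chrna1* (chr2:73563215-73580338, minus strand), which encodes the acetylcholine-binding α subunit, was higher in KO than in WT at both ages and lay between them in most KO+AAV libraries. At 10 weeks its normalized count had a lowest, median, and highest value of 172, 195, and 244 for WT, of 386, 505, and 603 for KO, and of 231, 294, and 684 for KO+AAV. The WT and KO libraries did not overlap, and 6 of the 7 KO+AAV libraries were below the lowest KO library, with replicate 5 above them all. KO exceeded WT by 1.32 ± 0.19 (log2 ± SE, 2.49-fold; adjusted p = 1.09e-05), and by 1.23 among ICBR libraries alone (adjusted p = 0.0149) and 1.40 among Novogene libraries alone (adjusted p = 0.00932). KO+AAV exceeded WT by 0.72 ± 0.18 (1.65-fold; adjusted p = 0.0153), a call that was lost within single sites (0.56 at ICBR, adjusted p = 0.188, and 0.90 at Novogene, adjusted p = 0.243). At 40 weeks the WT libraries held 153, 183, 250, 163, and 194 normalized counts, the KO libraries 655, 439, 395, 683, and 619, and the KO+AAV libraries 316, 340, 524, 266, and 344. Every KO and KO+AAV library was above every WT library, and 4 of the 5 KO+AAV libraries were below every KO library. The difference from WT was 1.55 ± 0.21 in KO (2.93-fold; adjusted p = 1.74e-06) and 0.91 ± 0.21 in KO+AAV (1.87-fold; adjusted p = 0.00335).

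*Chrnb1* (chr11:69784036-69795943, minus strand), which encodes the β subunit, was the most evenly raised member. At 10 weeks the normalized count ran from 424 to 625 (median 495) for WT, from 901 to 1260 (median 1080) for KO, and from 865 to 1231 (median 995) for KO+AAV. Neither KO nor KO+AAV overlapped with WT, while they overlapped with each other almost throughout. KO exceeded WT by 1.09 ± 0.11 (2.13-fold; adjusted p = 2.93e-08) and KO+AAV exceeded WT by 1.01 ± 0.11 (2.01-fold; adjusted p = 2.91e-07). Within sites the KO difference was 0.88 at ICBR (adjusted p = 0.0175) and 1.30 at Novogene (adjusted p = 3.66e-05), and the KO+AAV difference was 0.97 (adjusted p = 0.0173) and 1.03 (adjusted p = 0.00190). At 40 weeks *Chrnb1* was 532, 452, 588, 590, and 506 for WT, 1922, 1307, 1576, 1578, and 1248 for KO, and 1382, 1500, 1401, 1340, and 1666 for KO+AAV. The lowest KO library thus stood far above the highest WT library, and all 5 KO+AAV libraries fell inside the range of KO. In KO the difference from WT was 1.5 ± 0.12 (2.84-fold; adjusted p = 1.34e-10) and 1.45 ± 0.12 in KO+AAV (2.73-fold; adjusted p = 1.09e-09).

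*Chrnd* (chr1:87190607-87200070, plus strand), which encodes the δ subunit, was counted at far lower levels. At 10 weeks its normalized count ran from 18.4 to 48.3 for WT, from 26.1 to 78.5 for KO, and from 13.8 to 74.6 for KO+AAV. The groups overlapped, although 5 of the 6 KO libraries were above every WT library. The difference of KO from WT was 0.70 ± 0.31 and did not pass (adjusted p = 0.193), but it did without KO replicate 6 (0.97, adjusted p = 0.0341). That fit was the lowest of 12 that each left out 1 library, with adjusted p up to 0.384. At 40 weeks the WT libraries lay between 33.8 and 39.1, the KO libraries between 44.8 and 132, and the KO+AAV libraries between 30.9 and 67.1. All 5 KO libraries were above WT, and the difference of 0.88 ± 0.34 was just short of the threshold (adjusted p = 0.0580). It passed without the library labelled KO replicate 2 (1.04, adjusted p = 0.0356) and on whole reads with edgeR (1.01, adjusted p = 0.0345) and DESeq2 (1.0, adjusted p = 0.0222). With 1 library left out at a time, the adjusted p ran from 0.0356 to 0.178 over 10 fits.

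**Figure D2:**
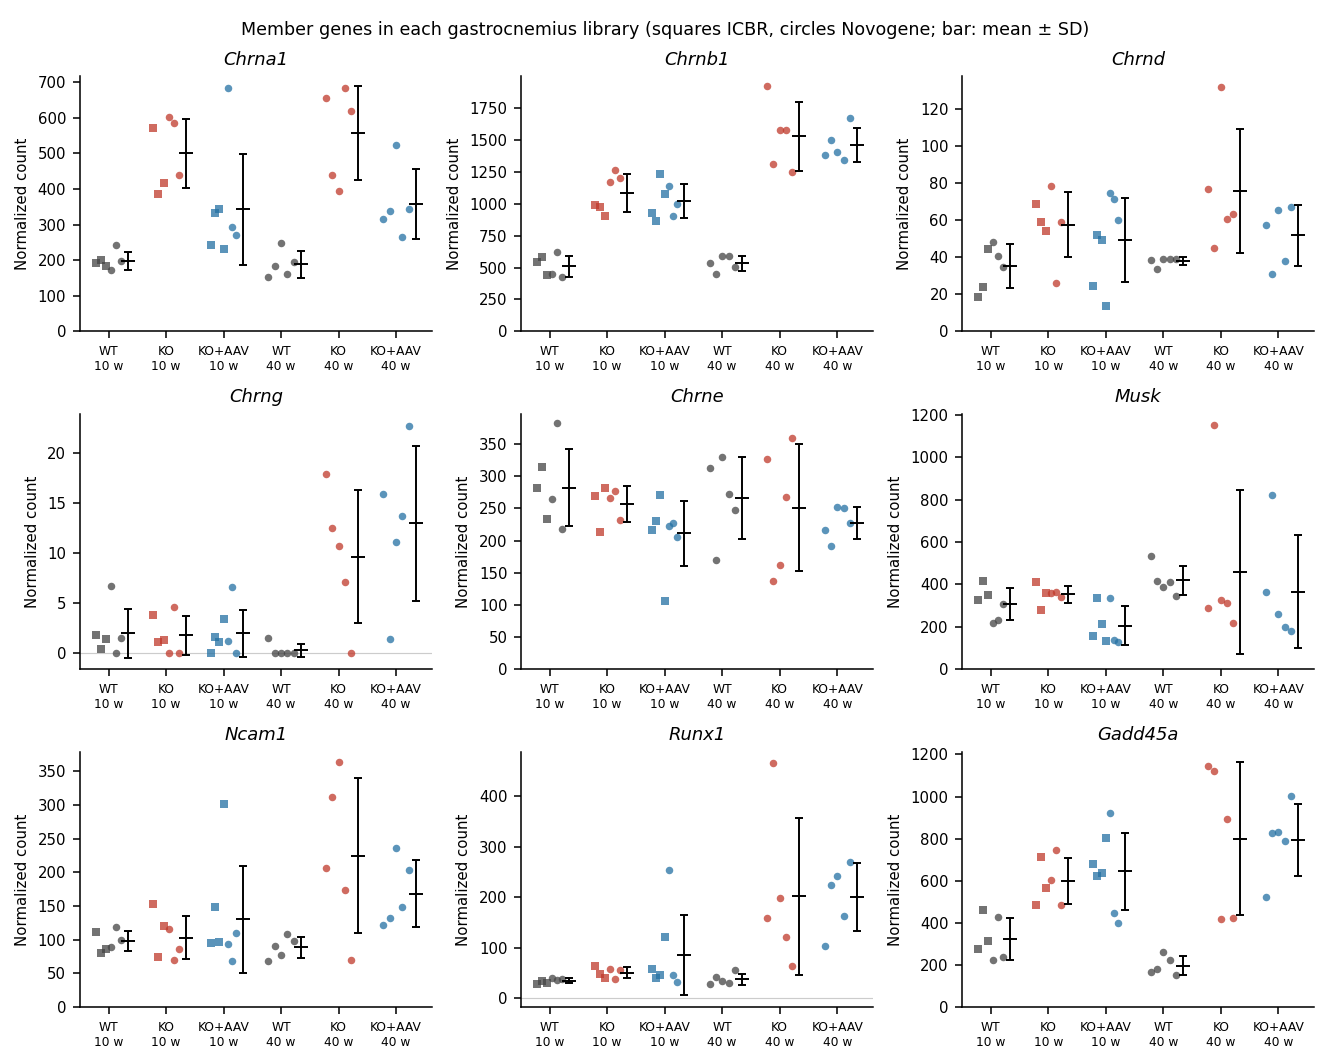
Normalized count (y axis, linear from 0) of each member in every library of the main experiment, by group, with the mean and SD at the right of each group. *Chrna1* and *Chrnb1* separate KO from WT at both ages (172 to 244 against 386 to 603 for *Chrna1* at 10 weeks), *Chrng* is near 0 except in KO and KO+AAV at 40 weeks, and single libraries carry the highest values of *Musk* (1150), *Ncam1*, and *Runx1*.

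The γ and ε subunits define the fetal and adult forms of the receptor, and at 40 weeks most mutant libraries held more reads of the γ gene than any WT library. *Chrng* (chr1:87204657-87212694, plus strand), the neighbor of *Chrnd*, had only 14 reads over the 6 WT libraries, 17 over the 6 KO libraries, and 20 over the 7 KO+AAV libraries at 10 weeks, and no more than 9 reads in any of them. At 40 weeks 1 read was counted over the 5 WT libraries, with 4 of them at 0. The KO libraries held 13, 7, 7, 4, and 0 reads, and the KO+AAV libraries 10, 1, 10, 9, and 19. In 4 of 5 libraries of each mutant group there were more *Chrng* reads than in any WT library of that age, while KO replicate 5 had none. With no filter on low genes, which let *Chrng* into the same test, the difference from WT at 40 weeks was 2.65 ± 0.72 in KO (adjusted p = 0.0129) and 3.22 ± 0.72 in KO+AAV (adjusted p = 0.00467), values whose size depends on the pseudocount since WT was near 0. *Chrng* was not called between KO+AAV and KO at 40 weeks (0.56 ± 0.72, adjusted p = 0.918) or between any groups at 10 weeks. The change from 10 to 40 weeks was not called either (1.75 ± 0.73 in KO, adjusted p = 0.220, and 2.26 ± 0.73 in KO+AAV, adjusted p = 0.0850).

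*Chrne* (chr11:70614883-70619216, minus strand) passed no test in either direction. Its normalized count ran from 218 to 383 for WT, from 213 to 281 for KO, and from 106 to 271 for KO+AAV at 10 weeks, and from 169 to 329, from 138 to 360, and from 192 to 253 at 40 weeks. The groups overlapped at both ages. The difference of KO from WT was -0.12 ± 0.21 at 10 weeks (95% interval -0.54 to 0.30) and -0.14 ± 0.23 at 40 weeks (-0.61 to 0.32), the latter changing sign without the library labelled KO replicate 2 (0.05). For KO+AAV it was -0.43 ± 0.20 at 10 weeks (adjusted p = 0.237) and -0.19 ± 0.23 at 40 weeks (adjusted p = 0.650).

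*Chrng* made up 0.756% ± 0.889 of the reads of *Chrng* plus *Chrne* in the 6 WT libraries at 10 weeks (mean ± SD), 0.671% ± 0.693 in the 6 KO libraries, and 1.09% ± 1.33 in the 7 KO+AAV libraries. At 40 weeks the share was 0.0943% ± 0.211 for WT, 4.46% ± 3.24 for KO, and 5.22% ± 3.13 for KO+AAV (n = 5 each). Single 40-week shares were 5.18%, 8.33%, 6.20%, 2.60%, and 0% in KO and 6.85%, 0.725%, 4.20%, 5.20%, and 9.13% in KO+AAV. All KO+AAV libraries were above the highest WT share (0.472%), as were 4 of the 5 KO libraries. The lowest KO+AAV share (0.725%) and the highest WT share each rest on 1 *Chrng* read. They differ only through their *Chrne* reads (137 and 211), so the full separation of KO+AAV from WT hangs on these 2 libraries. By a two-sided exact permutation test the difference from WT was 4.37 percentage points in KO (exact p = 0.0476, adjusted over 7 pairs of groups 0.167) and 5.13 points in KO+AAV (exact p = 0.00794, the smallest the design allows, adjusted 0.0556). Neither share difference held after adjustment, and the exact p of the other 5 pairs was 0.521 to 0.835. Without KO replicate 5, the library with no *Chrng* reads, the KO difference was 5.48 points and its adjusted exact p was 0.0278. Over 10 such tests that each left out 1 library, this adjusted exact p ran from 0.0278 to 0.194.

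**Figure D3:**
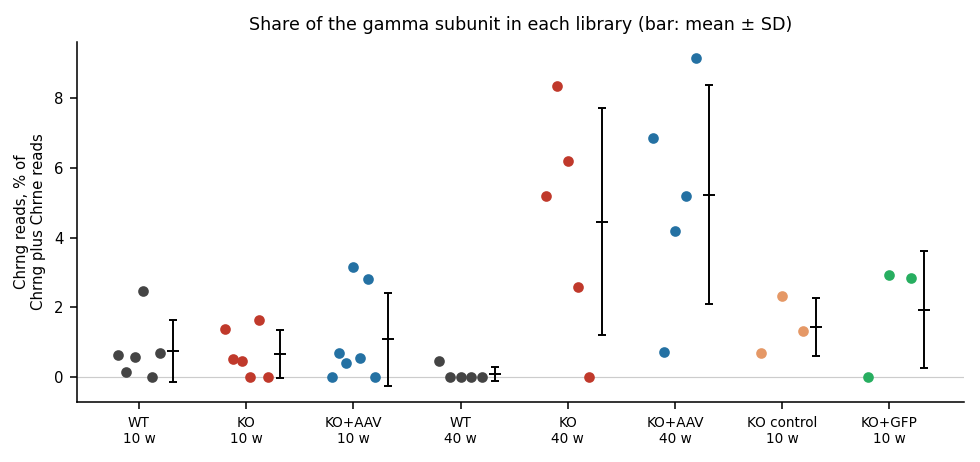
Share of *Chrng* in the reads of *Chrng* plus *Chrne* (y axis, %) in each gastrocnemius library, with the mean and SD at the right of each group. At 40 weeks WT libraries lie at 0% to 0.472%, and KO and KO+AAV libraries reach 8.33% and 9.13%, with 1 KO library at 0%.

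*Musk* (chr4:58285960-58374303, plus strand) encodes the receptor kinase that gathers acetylcholine receptors at the synapse. At 10 weeks it ran from 216 to 417 normalized counts for WT, from 281 to 410 for KO, and from 130 to 337 for KO+AAV. KO lay within the range of WT, whereas 5 of the 7 KO+AAV libraries were below every WT and every KO library. The difference was 0.22 ± 0.32 for KO minus WT (95% interval -0.43 to 0.88), -0.68 ± 0.31 for KO+AAV minus WT (adjusted p = 0.234), and -0.90 ± 0.31 for KO+AAV minus KO (adjusted p = 0.342). Without the 4 libraries that stood apart, a choice made after seeing the data, *Musk* was called lower in KO+AAV than in WT (-0.76, adjusted p = 0.0121) and than in KO (-0.98, adjusted p = 0.00793) at 10 weeks. At 40 weeks it was 534, 416, 388, 410, and 347 for WT, 290, 1150, 326, 311, and 218 for KO, and 365, 822, 258, 201, and 180 for KO+AAV. In both mutant groups replicate 2 was the highest library by far and most of the others were below every WT library. The difference from WT was -0.15 ± 0.35 in KO and -0.42 ± 0.35 in KO+AAV, neither called, and the sign in KO turned on whole reads (0.13 with edgeR and 0.13 with DESeq2). Without the libraries that stood apart it was -0.55 in KO (adjusted p = 0.0513) and -0.77 in KO+AAV (adjusted p = 0.00883).

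*Ncam1* (chr9:49502136-49798925, minus strand) encodes a cell adhesion molecule that spreads over the fiber surface after denervation. Its 10-week range was 80.1 to 120 normalized counts for WT, 69.1 to 153 for KO, and 68.6 to 302 for KO+AAV. The groups overlapped, and the KO+AAV maximum, replicate 4, was 302 where the next library had 149. At 40 weeks *Ncam1* was 68.2, 90.2, 77.9, 108, and 98.5 for WT, 206, 312, 363, 173, and 70.3 for KO, and 121, 132, 236, 148, and 204 for KO+AAV. Of the KO libraries 4 were above every WT library and 1 was among them, and all KO+AAV libraries were above WT. KO exceeded WT by 1.15 ± 0.33 (2.22-fold; adjusted p = 0.00951), whereas the KO+AAV difference of 0.89 ± 0.33 did not pass (adjusted p = 0.0692). With only the groups compared in the fit, so that the spread of KO+AAV was not estimated from the other groups, the 2 calls changed places (KO adjusted p = 0.0572, KO+AAV adjusted p = 0.0119). *Gm11149*, on the other strand, shares 4.81% of the exon bases of *Ncam1*, and whether the counting used strand was not stated.

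*Runx1* (chr16:92601466-92826149, minus strand) encodes a transcription factor that is low in innervated muscle and strongly raised after denervation. At 10 weeks its lowest, median, and highest normalized counts were 27.4, 34.8, and 40.2 for WT, 36.9, 51.4, and 63.8 for KO, and 32.2, 45.6, and 254 for KO+AAV. In each mutant group 5 libraries were above every WT library, and KO+AAV replicates 4 (121) and 5 (254) were above every KO library. The difference from WT was 0.53 ± 0.38 in KO (adjusted p = 0.511) and 0.92 ± 0.37 in KO+AAV (adjusted p = 0.158). The KO+AAV difference passed with edgeR (1.30, adjusted p = 0.0444) and DESeq2 (1.31, adjusted p = 0.0131) on whole reads, and was 0.34 (adjusted p = 0.547) without the libraries that stood apart. At 40 weeks *Runx1* was 26.7, 41.4, 33.6, 29.7, and 54.7 for WT, 160, 466, 199, 121, and 63.4 for KO, and 104, 225, 242, 162, and 270 for KO+AAV. Every mutant library was above every WT library, and the KO values spread widely, from 63.4 to the 466 of the library labelled KO replicate 2. Against WT the difference was 2.15 ± 0.42 in KO (4.43-fold; adjusted p = 0.000308) and 2.37 ± 0.42 in KO+AAV (5.15-fold; adjusted p = 0.000181). Without the libraries that stood apart it was 1.77 in KO (adjusted p = 2.65e-05) and 2.31 in KO+AAV (adjusted p = 1.16e-06).

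*Gadd45a* (chr6:67035096-67037457, minus strand) encodes a stress-induced protein that is raised in denervated and atrophying muscle. Its 10-week normalized count ran from 223 to 460 (median 295) for WT, from 484 to 745 (median 586) for KO, and from 402 to 920 (median 637) for KO+AAV. The KO libraries did not overlap with WT, and 5 of the 7 KO+AAV libraries were above every WT library. KO exceeded WT by 0.93 ± 0.24 (1.90-fold; adjusted p = 0.0114) and KO+AAV by 0.98 ± 0.23 (1.98-fold; adjusted p = 0.00769). Within single sites the sizes were alike but the calls were lost (KO 0.76 at ICBR with adjusted p = 0.0938 and 1.09 at Novogene with adjusted p = 0.188, KO+AAV 1.0 with adjusted p = 0.0508 and 0.95 with adjusted p = 0.401). At 40 weeks *Gadd45a* was 165, 179, 260, 222, and 152 for WT, 1147, 1123, 417, 892, and 422 for KO, and 521, 828, 832, 787, and 1001 for KO+AAV. Both mutant groups were wholly above WT, and KO split into a pair of libraries at 417 and 422 and 3 libraries at 892 to 1147. The difference from WT was 1.92 ± 0.26 in KO (3.78-fold; adjusted p = 2.30e-06) and 2.01 ± 0.26 in KO+AAV (4.04-fold; adjusted p = 2.57e-06). *E230016M11Rik*, on the other strand, shares 19.1% of the exon bases of *Gadd45a*. Its own count was 7.19 to 29.1 in the 10 ICBR libraries and 131 to 605 in the 9 Novogene libraries of the same age, while *Gadd45a* itself was not called between sites (Novogene minus ICBR -0.18, adjusted p = 0.607).

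Each group was also compared between ages, which share no library. In WT no member was called between 40 and 10 weeks by limma, edgeR, or DESeq2, with 1 at an unadjusted p under 0.05 (*Gadd45a*, -0.60 ± 0.27) and 0.148% of all genes called. In KO *Runx1* rose with age by 1.60 ± 0.43 (adjusted p = 0.0199), *Ncam1* by 1.12 ± 0.33 (adjusted p = 0.0340), and *Chrnb1* by 0.45 ± 0.13 (adjusted p = 0.0263), where 8.31% of genes were called. In KO+AAV *Runx1* rose by 1.43 ± 0.42 (adjusted p = 0.0318) and *Chrnb1* by 0.47 ± 0.13 (adjusted p = 0.0150), where 8.53% were called. *Chrna1* differed little with age in any group (-0.21 ± 0.21 for WT, 0.02 ± 0.21 for KO, and -0.03 ± 0.21 for KO+AAV). Between the same ages in KO+AAV, 3 of 6 fibroblast markers (median -1.61) and 1 of 10 macrophage markers (median -1.38, 5 called by edgeR and 6 by DESeq2) were called lower, with summed counts at 40 weeks of 1903 to 11135 and 254 to 1216, against 18772 to 138140 and 861 to 8657 at 10 weeks. In KO none of either list was called by limma or edgeR (medians -1.02 and -0.37, with 3 and 1 at an unadjusted p under 0.05, and 0 and 1 called by DESeq2). The part of these markers in the changes with age was not tested. All 40-week libraries came from Novogene. Among Novogene libraries alone, of the 5 rises with age only that of *Chrnb1* in KO+AAV was still called (0.53, adjusted p = 0.0455), and *Runx1* was 1.71 in KO (adjusted p = 0.0810) and 1.39 in KO+AAV (adjusted p = 0.174).

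The change of the KO difference from WT between ages was itself not called for any member by limma, edgeR, or DESeq2 (0.370% of all genes called). At an unadjusted p under 0.05 stood 4 members: *Runx1* (1.62 ± 0.57, adjusted p = 0.200), *Gadd45a* (0.99 ± 0.36, adjusted p = 0.213), *Ncam1* (1.13 ± 0.44, adjusted p = 0.263), and *Chrnb1* (0.42 ± 0.17, adjusted p = 0.278). The larger KO differences of these genes at 40 weeks were therefore not shown to differ from those at 10 weeks. Without KO replicate 5 at 40 weeks *Ncam1* was called (1.49, adjusted p = 0.0438), the lowest of 22 fits that each left out 1 library. The adjusted p of *Ncam1* in these fits reached 0.459. The change of the KO+AAV difference from KO between ages was called for no member by any of the 3 tools, with 0 at an unadjusted p under 0.05 and 0.00617% of all genes called.

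Return of *Bmal1* to muscle was compared with untreated KO at each age. No member was called at 10 weeks by limma, edgeR, or DESeq2, with 2 at an unadjusted p under 0.05 and 0.204% of all genes called. None was called at 40 weeks by these 3 tools, with 1 at an unadjusted p under 0.05 and 0.259% of genes called. *Chrna1* had the same sign at both ages, with KO+AAV minus KO at -0.60 ± 0.18 at 10 weeks (0.66-fold; 95% interval -0.97 to -0.22; adjusted p = 0.234) and -0.64 ± 0.21 at 40 weeks (0.64-fold; -1.07 to -0.22; adjusted p = 0.237). Markers of other cells stood higher in KO+AAV than in KO at 10 weeks: none of 10 macrophage and 6 fibroblast markers was called by limma, edgeR, or DESeq2, but 8 and 5 had an unadjusted p under 0.05, with median differences of 1.25 and 0.83. The summed macrophage count was 861 to 8657 in KO+AAV and 422 to 1278 in KO, with at most 1 marker at 0 in a library, and the summed fibroblast count was 18772 to 138140 and 7450 to 27187, with none at 0. Their part in the member differences was not tested. Without KO+AAV replicate 5 the 10-week *Chrna1* difference was -0.78 (adjusted p = 0.0257), and without the libraries that stood apart the differences were -0.73 at 10 weeks (adjusted p = 0.0319) and -0.71 at 40 weeks (adjusted p = 0.133). Over 13 fits that each left out 1 library, the 10-week adjusted p of *Chrna1* ran from 0.0257 to 0.557. For *Chrnb1* the intervals were narrow around 0, from -0.30 to 0.14 at 10 weeks and from -0.30 to 0.20 at 40 weeks. For *Gadd45a* they ran from -0.41 to 0.53 and from -0.44 to 0.63, and for *Runx1* from -0.35 to 1.15 and from -0.63 to 1.07.

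The control vector addressed what an AAV itself does to these genes in KO muscle. *Chrna1* was 312, 265, and 329 normalized counts in the control KO libraries and 207, 216, and 212 in the KO+GFP libraries. The groups did not overlap, and the difference of -0.50 ± 0.11 (0.71-fold; adjusted p = 0.0314) was the only one called among 8 members, with 3 at an unadjusted p under 0.05 and 3.09% of all genes called. The call was lost when any of 5 of the 6 libraries was left out (adjusted p up to 0.153), with differences from -0.59 to -0.44. *Chrnb1* (564, 598, and 609 against 485, 482, and 527) and *Chrne* (144, 143, and 154 against 113, 109, and 120) did not overlap either, and their differences of -0.24 ± 0.09 (adjusted p = 0.153) and -0.37 ± 0.12 (adjusted p = 0.129) were not called. With 3 libraries a group, genes that do not change can also fail to overlap. The share of all genes without overlap was not counted, so the lack of overlap carries little weight here. *Chrnd*, *Musk*, *Ncam1*, *Runx1*, and *Gadd45a* overlapped between the groups and did not pass, with differences from -0.21 to 0.19. *Chrng* had 6 reads in the control libraries and 8 in KO+GFP. The KO+GFP libraries also had a summed count over 8 slow fiber markers of 12110 to 17010, against 1460 to 8407 in the controls, a summed count over 9 Schwann cell markers of 434 to 544 against 1080 to 1304, and 6 of 9 macrophage and 3 of 6 fibroblast markers tested were called higher. Their part in the *Chrna1* difference was not tested. The 2 vector experiments were normalized apart and share no library, so their differences are only set side by side.

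**Figure D4:**
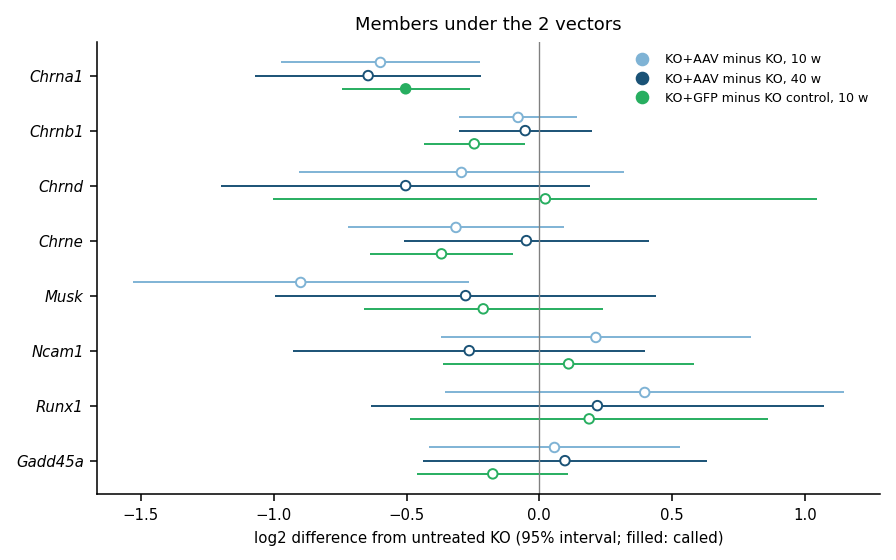
Log2 difference from untreated KO muscle (x axis, with 95% intervals) of the 8 members tested, for KO+AAV at 10 and 40 weeks and for KO+GFP at 10 weeks, with filled points for called genes. *Chrna1* is below 0 in all 3 comparisons (-0.60, -0.64, and -0.50) and called only in the GFP experiment, and *Chrnb1* lies near 0 under the *Bmal1* vector.

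Members did not move as a block from library to library. After group and site means were removed, over 34 libraries, *Ncam1* and *Runx1* had a Pearson r of 0.58, *Chrnb1* and *Gadd45a* of 0.53, *Runx1* and *Gadd45a* of 0.52, and *Chrna1* and *Chrne* of 0.48, while *Chrne* had -0.54 with *Ncam1* and -0.52 with *Runx1*. These are descriptions over libraries of unequal depth and of 2 sites. KO replicate 5 at 40 weeks had the lowest *Chrnb1* (1248), *Ncam1* (70.3), *Runx1* (63.4), *Musk* (218), and *Chrng* (0 reads) of its group, with *Chrna1* at 619 and the highest *Chrne* (360). In the same group the library labelled KO replicate 2 had the highest *Runx1* (466) and *Musk* (1150) and the lowest *Chrne* (138). At 10 weeks KO+AAV replicate 5, with the high macrophage sum, had the highest *Chrna1*, *Runx1*, *Chrnd*, and *Gadd45a* of its group, and replicate 4, with the high fibroblast sum, had the highest *Ncam1* and the lowest *Chrne* and *Chrnd*. The part of those cell types in these values was not tested.

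**Figure D5:**
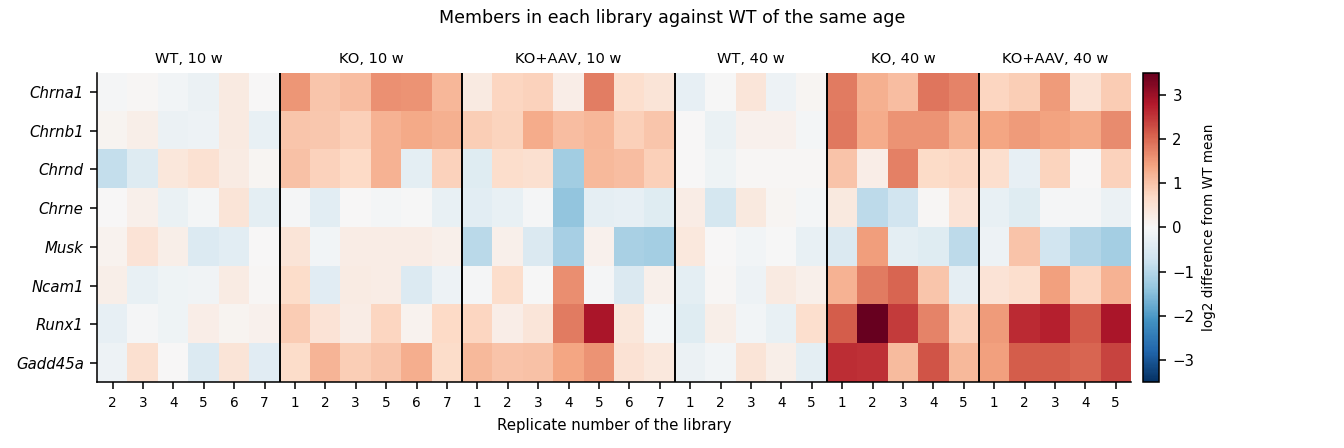
Log2 difference of each library from the WT mean of its age (color, log2 of normalized count + 1) for the 8 members tested, with libraries in columns by group and replicate number. *Chrnb1* is red in every KO and KO+AAV library, *Runx1* and *Gadd45a* are red in every mutant library at 40 weeks, and *Musk* stands out in replicate 2 of both mutant groups at 40 weeks (1150 and 822 normalized counts).

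On the RPKM scale (reads scaled to exon length and library size), *Chrnb1* had the highest level of the members in WT at 10 weeks (mean 12.1), followed by *Gadd45a* (11), *Chrne* (10.1), *Musk* (4.93), *Chrna1* (2.72), *Ncam1* (0.68), *Chrnd* (0.65), *Runx1* (0.17), and *Chrng* (0.03). The ranges of *Chrnb1*, *Gadd45a*, and *Chrne* overlapped there, as did those of *Ncam1* and *Chrnd*. In KO at 40 weeks the order was *Chrnb1* (36.0), *Gadd45a* (26.4), *Chrne* (8.87), *Chrna1* (7.57), *Musk* (6.98), *Ncam1* (1.56), *Chrnd* (1.41), *Runx1* (0.97), and *Chrng* (0.14). The ranges of *Chrnb1* and *Gadd45a* overlapped there, as did those of *Chrne*, *Chrna1*, and *Musk* and those of *Ncam1*, *Chrnd*, and *Runx1*. *Musk* (median 4.94) also reached into the range of *Gadd45a* (lowest 14.5), through the 16.2 of the library labelled KO replicate 2.

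Of 32 other genes of receptor clustering and the junction, 31 were tested. At 10 weeks 2 were higher and 2 lower in KO than in WT (8.00% of all genes called), and 1 was higher and 1 lower in KO+AAV (5.15%). *Lamb2*, a laminin chain of the synaptic basal lamina, rose by 0.60 ± 0.12, and *Prkar1a*, a regulatory subunit of protein kinase A, by 0.42 ± 0.10, whereas *Sntb1*, which encodes a syntrophin, fell by 1.57. At 40 weeks 7 were higher and 5 lower in KO (23.5%), and 6 were higher and 2 lower in KO+AAV (12.5%). *Colq*, which anchors acetylcholinesterase in the basal lamina, rose by 1.33 ± 0.23 in KO and 1.5 ± 0.23 in KO+AAV, and *Sntb1* was at -2.12 in KO and -2.2 in KO+AAV, both called. The list's median difference from WT was -0.02 at 10 weeks and 0.11 at 40 weeks in KO. The partners of MuSK overlapped between groups: *Lrp4* was 198 to 251 for WT, 125 to 420 for KO, and 104 to 233 for KO+AAV at 40 weeks, *Dok7* was 264 to 375, 222 to 356, and 236 to 351, and *Rapsn*, which encodes the receptor's scaffold, was 363 to 430, 236 to 448, and 345 to 416.

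Of 20 other genes listed as raised on denervation, 5 were higher in KO and 4 in KO+AAV than in WT at 10 weeks. None was lower, where 8.00% and 5.15% of all genes were called. At 40 weeks 13 were higher and 1 lower in KO (23.5% of all genes called), and 11 higher and 1 lower in KO+AAV (12.5%). The list's median difference from WT was 0.59 and 0.53 at 10 weeks and 1.45 and 1.43 at 40 weeks. *Cdkn1a*, a cell cycle inhibitor, rose at 40 weeks by 4.81 ± 0.40 in KO and 4.34 ± 0.40 in KO+AAV, and *Ankrd1*, a stress-responsive repeat protein, by 3.89 ± 0.40 and 4.69 ± 0.40. *Fgfbp1*, which carries fibroblast growth factors and is known to help maintain the junction, was the exception, with differences of -3.21 in KO and -2.31 in KO+AAV, both called. Embryonic myosin *Myh3* was 10.4 to 107 normalized counts for WT, 146 to 1182 for KO, and 215 to 816 for KO+AAV, and *Myog*, which encodes a factor that drives receptor subunit genes, was 29.7 to 90.2, 106 to 263, and 185 to 277. Between KO+AAV and KO none of the 20 was called at either age by limma, edgeR, or DESeq2, with 3 at an unadjusted p under 0.05 at 10 weeks and 1 at 40 weeks. Of 2 genes listed as lowered on denervation, neither was called against WT or between KO+AAV and KO by these tools. Between KO+AAV and KO at 10 weeks 2 stood at an unadjusted p under 0.05.

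Among 11 subunits of neuronal nicotinic receptors, 4 were tested, and 1 of them, *Chrna9*, was called by limma against WT. It was higher in KO at 10 weeks (8.00% of all genes called) and at 40 weeks (23.5%). In KO+AAV it was higher at 40 weeks (12.5%). In that last comparison edgeR and DESeq2 each called 2 of the 4, *Chrna9* among them. *Chrna9*, the α9 subunit, had 0, 2.51, 1.77, 1.56, and 0 normalized counts in WT at 40 weeks, 150, 78.8, 93.5, 21.4, and 23.4 in KO, and 3.19, 77.2, 5.55, 7.63, and 5.99 in KO+AAV. Every KO library was above every WT and most KO+AAV libraries, and among KO+AAV replicate 2, with the high *Trim63*, stood far above the other 4. The difference from WT was 4.92 ± 0.68 in KO (adjusted p = 2.68e-06) and 2.47 ± 0.68 in KO+AAV (adjusted p = 0.0140), sizes that depend on the pseudocount since WT was near 0. Without KO+AAV replicate 2 alone the KO+AAV difference was 1.75 and no longer called (adjusted p = 0.0672), and without all libraries that stood apart it was 1.75 (adjusted p = 0.0405). KO+AAV minus KO was -2.45 ± 0.68 (adjusted p = 0.138), and without KO+AAV replicate 2 it was -3.17 (adjusted p = 0.0108). It was not called when any other single library of these groups was left out (adjusted p = 0.0638 to 0.322). At 10 weeks *Chrna9* exceeded WT in KO by 2.16 ± 0.62 (adjusted p = 0.0250).

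Markers of nerve and glia were measured in the same libraries. Of 10 motor axon genes only 2 passed the filter. The summed count of all 10 per library was 21.5 to 180 at 10 weeks and 34.5 to 326 at 40 weeks. Neither of the 2 was called against WT at either age by limma, edgeR, or DESeq2, or stood at an unadjusted p under 0.05. From 10 to 40 weeks 1 of them, *Uchl1*, was called higher in KO (2.35 ± 0.56, adjusted p = 0.0101) and KO+AAV (1.72 ± 0.55, adjusted p = 0.0468), where 8.31% and 8.53% of all genes were called. Of 9 Schwann cell markers 8 were tested. At 40 weeks 1 was lower in KO than in WT (*S100b*, -1.76 ± 0.66, not called by edgeR or DESeq2), and the summed count was 1468 to 5359 for WT, 892 to 7487 for KO, and 1103 to 5876 for KO+AAV. Of 7 satellite cell markers only *Pax7* was called by limma against WT at 40 weeks, in KO (-0.72, adjusted p = 0.0404), and not by edgeR or DESeq2, while DESeq2 called 1 in KO+AAV. None of 8 slow fiber markers was called in KO against WT at 40 weeks by limma or edgeR, with 3 at an unadjusted p under 0.05 and 1 called by DESeq2, and the summed count at that age ran from 1815 to 29660 in WT and from 9674 to 174600 in KO. The part of these cell types in the member differences was not tested.

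Genes most like each member over the 34 libraries, by Pearson r with site means removed and with group differences left in, were found among all genes tested. *Chrna1* was closest to *Dmpk* (0.87) and *Cavin4* (0.87), *Chrnb1* to *Cilp* (0.93) and *Rab11b* (0.92), *Chrnd* to *Rngtt* (0.79) and *Prkar1a* (0.78), and *Chrne* to *Agpat1* (0.73). *Musk* was closest to *Ipo7* (0.84), *Ncam1* to *Cyb5r3* (0.84), and *Runx1* to *Rasa3* (0.91). For *Gadd45a* the nearest was its overlapping partner *E230016M11Rik* (0.96), followed by the member *Chrnb1* (0.88).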

How the data were processed

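HISAT2 alignment to GRCm38 and HTSeq gene counting were done by the authors, whose deposited signal values are the counts of a library after division by its DESeq2 size factor. Whole reads were recovered for all 72 libraries (100% of values within 0.05 of a whole number) and used for the count models. The annotation release and strand setting of the counting are not given in the sources used here.

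Tests used limma 3.58.1 (intensity trend, R 4.3.3) on log2 of the normalized count + 1 for genes with a mean above 5: 16199 genes over 34 libraries (6 groups, sequencing site as a covariate) and 14477 genes over the 6 libraries of the GFP experiment. p-values were Benjamini-Hochberg adjusted over all genes tested. edgeR 4.0.16 and DESeq2 1.42.0 on the recovered reads, other normalizations, filters, pseudocounts, sites, and libraries left out were alternatives. The *Chrng* share was tested by exact permutation within sites. Coordinates, exon lengths, and overlaps came from the GENCODE annotation of GRCm38. The model scripts were tested on simulated data. Nothing states that replicates were separate cohorts, so p-values measure the spread between these libraries.

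All 9 members are described. From the other lists, up to 2 called genes in each direction with the lowest p were named, and *Lrp4*, *Dok7*, *Rapsn*, *Myh3*, *Myog*, *Arntl*, and *Trim63* were added as context after their values were seen. A gene that this rule would name is not reported here. The members, lists, and tests were chosen with earlier results of these data known. Same-numbered libraries come from different mice. Of 35 same-number pairs, 9 had a correlation of their deviations over 0.1 (range -0.126 to 0.366). The highest were KO with KO+AAV at 40 weeks, at 0.366 for replicate 2 and 0.343 for replicate 3. Whether same-numbered libraries shared a batch was not tested. Other tissues of the series were not analysed here.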

Additional observations from a re-analysis of the deposited data

Results flagged for a closer look

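In 9 of 54 sets of 1 member gene in 1 group, a library stood apart from the rest by Dixon's test (chance flags about 1 in 20), and no cause was tested. At 10 weeks KO+AAV replicate 5 had 684 normalized counts of *Chrna1* (next highest 344) and 254 of *Runx1* (next 121). KO+AAV replicate 4 had 302 of *Ncam1* (next 149) and 106 of *Chrne* (next lowest 206). WT replicate 5 had 6.70 of *Chrng*, which rests on 5 reads. At 40 weeks the library labelled KO replicate 2 had 1150 of *Musk* (next 326), and KO+AAV replicate 2 had 822 of *Musk* (next 365). WT replicate 1 had 1.48 of *Chrng*, a single read, where the other 4 WT libraries had 0. WT replicate 2 had 33.8 of *Chrnd* (next lowest 38.5). Of these 9 values, 6 belong to the 4 libraries that stood apart in *Trim63* or in cell type markers.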

How the results depend on the processing

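Over 48 differences of single members and 1166 alternative values for them, 1081 kept their direction and side of the threshold, 44 lost the call, 30 gained it, and 11 changed sign. The calls of *Chrna1*, *Chrnb1*, and *Gadd45a* for KO against WT at both ages, and of *Runx1* at 40 weeks, held in every fit that left out 1 library. Precision is limited by depth for *Chrng* (0 to 19 reads per library) and by 3 libraries a group in the GFP experiment.

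Members called in KO+AAV against WT at 10 weeks were 1 at ICBR alone and 1 at Novogene alone. Against KO at 10 weeks they were 2 at an unadjusted p under 0.01, 2 without the libraries that stood apart (an alternative chosen after seeing the data), 1 with library quality weights, and 0 to 1 when single libraries were left out. At 40 weeks 1 had an unadjusted p under 0.01. For 40 against 10 weeks in KO the count was 0 among Novogene libraries, 0 with only the groups compared, 1 with quality weights, and 1 to 3 with single libraries left out. In KO+AAV it was 1 without the filter, 1 among Novogene libraries, 0 with only the groups compared, 1 with edgeR, 1 with DESeq2, and 1 to 2 with single libraries left out. For the change of the KO difference between ages it was 2 at an unadjusted p under 0.01 and 0 to 1 with libraries left out, and in the GFP experiment 0 to 1. The cause was not tested. The share of all genes called under each of these settings is not given here. These counts therefore cannot be set against it, and settings with fewer libraries may call fewer genes of any kind.

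*Musk* in KO against WT was -0.065 at ICBR alone at 10 weeks, and at 40 weeks 0.13 with edgeR, 0.13 with DESeq2, and -0.549 to 0.049 with libraries left out. *Chrne* in KO against WT at 40 weeks was 0.046 without the libraries that stood apart, 0.086 with quality weights, and -0.299 to 0.046 with libraries left out. For KO+AAV against KO at 40 weeks these ranges were -0.63 to 0.126 for *Musk* and -0.239 to 0.105 for *Chrne*. With libraries left out, the *Chrng* share differed by -0.279 to 0.259 percentage points (KO, 10 weeks) and -0.0102 to 0.677 (KO+AAV, 10 weeks) from WT, by 3.4 to 5.48 (KO, 40 weeks), by -0.354 to 1.89 (KO+AAV against KO, 40 weeks), and by -0.0164 to 1.45 (KO+GFP).

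With the replicate number as a block, 4 members were called for KO and 5 for KO+AAV against WT at 40 weeks, and 2 for KO+AAV against WT at 10 weeks. The share of all genes called with this block is not given here. *Ncam1* lost its call in KO (adjusted p = 0.0752) and gained it in KO+AAV (adjusted p = 0.018), and *Chrna1* lost it in KO+AAV at 10 weeks (adjusted p = 0.0565). The numbers do not pair the mice, but a batch shared by same-numbered libraries was not tested, so these lost calls remain a limit.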
